A study of Mus musculus with 20 samples.

Results

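Gastrocnemius muscle with an intact nerve was compared between Opg−/− and WT mice. The comparison used the 10 sham libraries of the 20 RNA sequencing libraries of the study, chosen by their labels alone: 5 labelled Opg−/− sham and 5 labelled WT sham. The Opg−/− mice were homozygous for the knockout allele Tnfrsf11b tm1Smoc, and the WT mice, labelled C57BL/6 with no substrain, came from the same centre. Both groups were 12-week-old males. In the sham limb the left sciatic nerve was exposed and not cut. The right nerve of the same mice was cut (den limb), so every sham muscle came from an animal with a denervated limb on its other side, and the muscles were taken at day 7. The question was how muscle gene expression differs between the genotypes in a limb whose own nerve was not cut.

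Opg, written Tnfrsf11b in gene tables, encodes osteoprotegerin (OPG), a secreted decoy receptor that binds the ligand RANKL and keeps it from its receptor RANK. RANK signals through TRAF6 to NF-kappaB and NFATc1, and the axis is best known for the control of osteoclasts: mice without OPG lose bone. Skeletal muscle fibres also carry RANK.

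Values are normalized expected counts, the authors' RSEM estimates of reads per gene divided by 1 size factor per library. The sham libraries held 15186247 to 20102295 reads assigned to genes. The first 2 WT sham libraries were closer to each other than sampling noise alone would leave them (chi-square per degree of freedom 0.325, against 6.78 to 25.7 in the other pairs within groups), so they were averaged and counted as 1 sample, which leaves n = 5 Opg−/− and n = 4 WT. That WT pair stood apart from the other WT sham libraries: its values summed to 20480000, within the range of the Opg−/− sham libraries (19100000 to 22056200) and above WT sham 3 to 5 (17865900 to 17980900). On the first principal component of the sham libraries (17.4% of the variance) the pair lay at −2.41, beside the Opg−/− libraries at −47.7 to −0.01, and WT sham 3 to 5 lay at 26.4 to 40.6. Markers of fast skeletal muscle were abundant in all of them. Myh4, the fast IIB myosin, had 1232600 to 1481500 normalized expected counts in Opg−/− sham and 910680 to 1300100 in WT sham.

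The mice were genotyped by PCR, according to the study's methods. The RNA of the targeted gene did not check the labels. Tnfrsf11b (ENSMUSG00000063727, chromosome 15 of mm10, 54250619 to 54278484, minus strand) rested on 5 to 10 reads in the libraries labelled Opg−/− sham and 1 to 5 reads in WT sham. It averaged 8.78 ± 1.99 (SD, n = 5) in Opg−/− sham and 2.75 ± 1.90 (SD, n = 4) in WT sham, higher in the knockout (exact permutation test, two-sided, p = 0.0159, which no arrangement of these 9 samples can undercut). Its adjusted p over all genes was 0.19 (limma), and in the den limb its log2 fold change was 0.29 (unadjusted p = 0.50, limma). Gene-level values cannot tell which exons the reads covered, and the group names used here follow the labels.

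Of 17948 genes tested, 19 passed an adjusted p of 0.05 (limma, Benjamini-Hochberg), which is 0.106% of the genes: 7 were higher (0.039%) and 12 lower (0.0669%) in Opg−/− sham muscle. Of these, 11 also changed by more than 1 on the log2 scale (0.0613%), only Stc2 upward. The lower genes included Socs3, an inhibitor of cytokine signalling, the myeloid genes Clec4a1, Slc11a1 and Cyth4, the keratin Krt8, the Wnt ligand Wnt10b and the Z-disc gene Csrp3. The higher genes included the secreted glycoprotein Stc2, the glutathione transferase Gstm2, the kinase Pak1 and a duplicated locus on chromosome 14. In 17 of the 19 genes the 2 groups did not overlap, against 541 genes (3.01%) of all tested, 1.74% higher and 1.28% lower. The 19 were chosen by p-value on these same samples, which favours groups that lie apart, so that count adds no support.

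**Figure D1:**
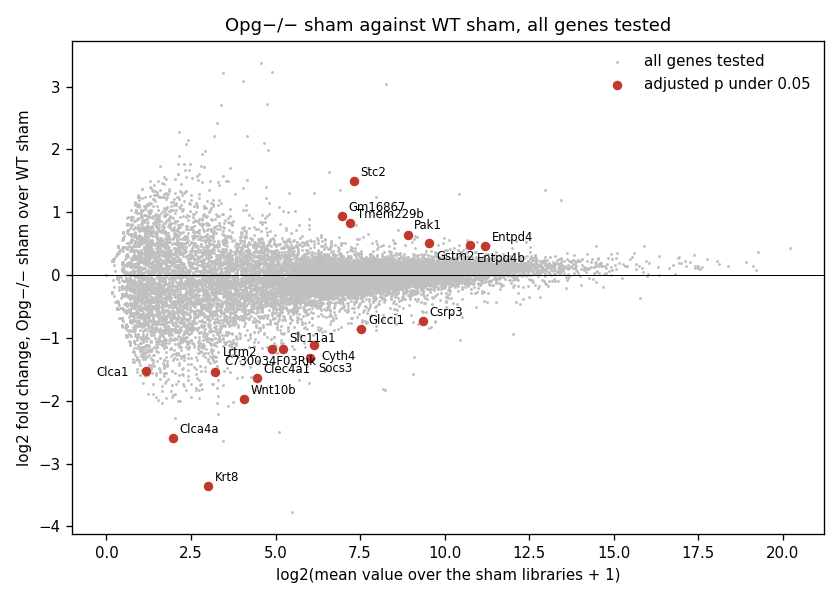
Log2 fold change of Opg−/− sham over WT sham (vertical axis) against the mean level in the sham libraries (horizontal axis, log2 of the mean value + 1) for the 17948 genes tested. The 19 genes past an adjusted p of 0.05 are named in red, 7 above and 12 below 0, with Stc2 at 1.50 and Krt8 at −3.35 as the extremes among them.

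The count was not stable. Without WT sham 3, 4 or 5 it fell to 2, 3 and 3 genes, and without the averaged WT pair it was 114. Scaling every library to the same total gave 34 genes, 5 higher and 29 lower, and moved the median log2 fold change of all genes from 0.02 to −0.11, so small positive changes are read against that shift below. All 19 genes kept their direction in each alternative fit that tested them.

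Socs3 had the smallest p. SOCS3 is made in response to cytokines that act through gp130 and STAT3, such as IL-6 and LIF, and inhibits the JAK kinases in return. Its values were 41.2, 28.9, 39.5, 31.3 and 45.4 in Opg−/− sham, against 102, 135, 69.8 and 79.4 in WT sham. Every Opg−/− library was below every WT library, and the difference was −1.32 on the log2 scale (SE 0.19, adjusted p = 0.00321, limma). Socs1, a family member induced mainly by interferon and chosen here after its values were seen, had 7.27, 6.28, 5.99, 4.47 and 1.19 in Opg−/− sham, against 12.97, 10.59, 13.96 and 13.23 in WT sham. Its groups did not overlap either, but its adjusted p was 0.22 (limma). The list of SOCS, STAT and cytokine receptor genes as a whole had a median log2 fold change of 0.01 over 20 genes, with 11 above and 9 below 0. In that list 3 genes were lower with no overlap between the groups (1.28% of all genes) and 0 were higher with no overlap (1.74%).

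STAT proteins are known to bind the Socs3 promoter, so its sequence is shown here (RefSeq start, GRCm38.p6, chr11:117969452-117969616, minus strand, the part of the 250 bases before the start that no annotated exon of the gene covers). The stretch lies inside the annotated span of the gene, 117966079 to 117970047, which begins upstream of the RefSeq start. Capitals mark the only match in the full 250 bases to the STAT palindrome TTCNNNGAA, which reads the same on both strands and starts 154 bases before the start site. Binding was not measured, and whether this match is a site that STAT proteins use was not tested. Of 27025 promoter windows of 250 bases, 7.18% held at least 1 match. The window of Socs1 held 0 matches.
Socs3: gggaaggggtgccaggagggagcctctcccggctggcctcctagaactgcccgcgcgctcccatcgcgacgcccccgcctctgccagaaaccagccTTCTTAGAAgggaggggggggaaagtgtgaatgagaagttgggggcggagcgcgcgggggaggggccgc

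Of the 12 lower genes, Clec4a1, Slc11a1 and Cyth4 are known from myeloid cells. Clec4a1, a C-type lectin of macrophages and dendritic cells, had 8.486, 13.82, 11.97, 8.943 and 8.356 in Opg−/− sham, against 34.1, 30.6, 27.9 and 43.0 in WT sham. The difference was −1.63 on the log2 scale (SE 0.28, adjusted p = 0.00944, limma), with no overlap. Slc11a1, the metal transporter of phagosomes, averaged 23.4 ± 8.11 (SD, n = 5) in Opg−/− sham and 52.1 ± 8.75 (SD, n = 4) in WT sham, a log2 fold change of −1.17. Cyth4, an exchange factor for ARF proteins in leukocytes, averaged 46.2 ± 14.2 (SD, n = 5) in Opg−/− sham and 99.1 ± 13.6 (SD, n = 4) in WT sham, a log2 fold change of −1.12. Mgl2, a lectin of macrophages, had a log2 fold change of −1.12 with no overlap between the groups and an adjusted p of 0.056 (limma).

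Of the 56 gene lists made, that of macrophage markers had the lowest median log2 fold change, the next lowest being −0.34. The 20 macrophage markers measured all had a log2 fold change below 0, with a median of −0.73 against 0.02 for all genes. Of these, 12 had an unadjusted p under 0.05, against 5.32% of all genes in that direction, 4 had groups that did not overlap, against 1.28%, and 0 passed the adjusted p. These counts are over genes and do not measure the spread between samples. Per library, the median difference of the markers from their WT mean overlapped between the groups. It was −1.19 to −0.22 in Opg−/− sham and −0.37 to 0.23 in WT sham. Tyrobp, the adaptor of myeloid activating receptors, had 26.7, 37.7, 18.0, 20.1 and 16.7 in Opg−/− sham, against 45.5, 50.6, 52.6 and 41.9 in WT sham (log2 fold change −1.03, adjusted p = 0.070, limma). Cd68, a lysosomal protein of macrophages, averaged 24.9 ± 10.4 (SD, n = 5) in Opg−/− sham and 51.0 ± 10.7 (SD, n = 4) in WT sham (log2 fold change −1.08, adjusted p = 0.12, limma), and its groups overlapped. The markers summed to 1643 to 3106 in Opg−/− sham and to 2868 to 4237 in WT sham, the lowest WT value being that of the averaged pair. Without the pair the median log2 fold change of the markers was −0.86, and under equal totals −0.87. In whole muscle, fewer cells of a type and less RNA per cell cannot be told apart.

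Other cells of the muscle stroma showed smaller differences. The 10 genes of MHC class II and antigen presentation had a median of −0.34, 9 of them below 0: Ciita, the master regulator of class II genes, was at −1.02 and H2-DMa, which loads peptides on class II molecules, at −0.54 (adjusted p 0.27 and 0.30, limma). The 16 markers of fibro-adipogenic progenitors had a median of −0.22 and the 35 collagen and matrix genes −0.17. These 3 medians depended on single libraries: leaving out 1 at a time gave −0.44 to −0.20 for class II, −0.27 to −0.13 for fibro-adipogenic progenitors and −0.20 to −0.08 for collagen and matrix, and leaving out the WT pair gave −0.50, −0.33 and −0.29 in that order. Pi16, a marker of fibroblast progenitors, averaged 544 ± 80.8 (SD, n = 5) in Opg−/− sham and 991 ± 265 (SD, n = 4) in WT sham with no overlap (log2 fold change −0.84, adjusted p = 0.12, limma). Adamts1, a protease of the matrix, averaged 569 ± 90.1 (SD, n = 5) in Opg−/− sham and 855 ± 114 (SD, n = 4) in WT sham, also with no overlap (log2 fold change −0.59, adjusted p = 0.14, limma). Medians were 0.02 for 20 endothelial markers, −0.09 for 13 of T and NK cells, 0.10 for 12 of B and plasma cells and 0.16 for 12 of neutrophils. None of these 4 held its sign when 1 library was left out, with ranges of −0.01 to 0.06, −0.27 to 0.004, −0.14 to 0.32 and −0.18 to 0.72 in that order, and without the WT pair the neutrophil median was −0.22. The T and NK markers were the scarcest and summed to 16.8 to 26.7 in Opg−/− sham and to 19.4 to 45.9 in WT sham.

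**Figure D2:**
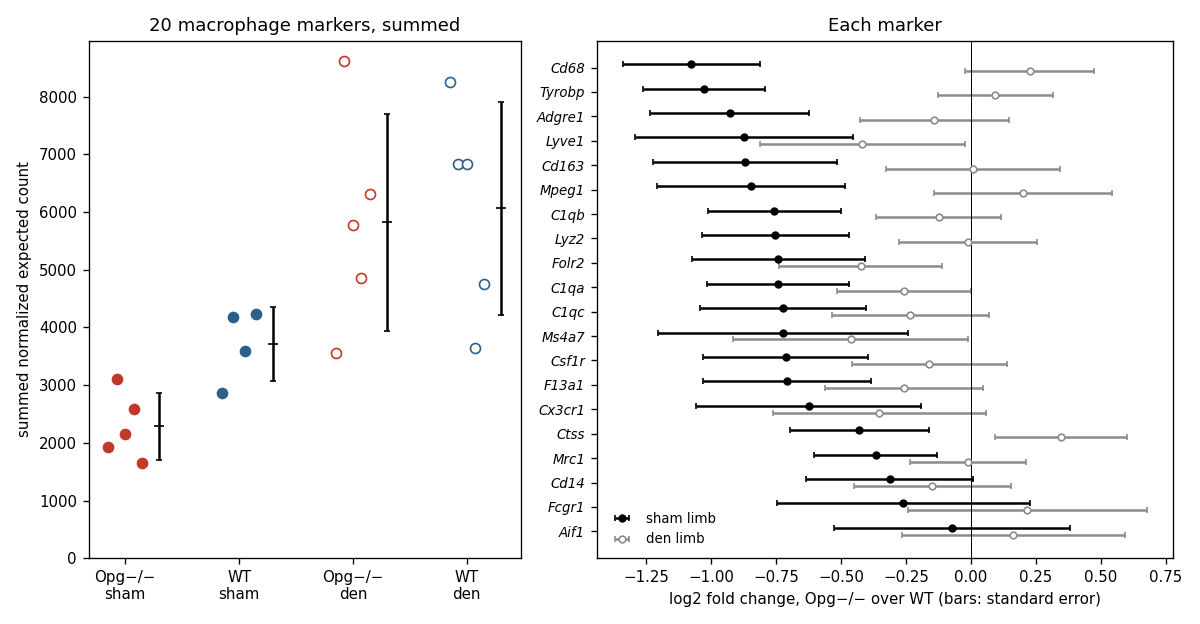
Left, the sum of 20 macrophage markers in normalized expected counts per library, with the group mean and SD: 1643 to 3106 in Opg−/− sham and 2868 to 4237 in WT sham (filled), with the den limbs open. Right, the log2 fold change of Opg−/− over WT for each marker with its standard error, filled for the sham limb, where all 20 lie below 0, and open for the den limb, where 13 do.

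Among the higher genes, Stc2 rose the most. Stanniocalcin-2 is a secreted glycoprotein that inhibits the protease PAPP-A and thereby the release of IGF. Stc2 had 312, 204, 241, 111 and 255 in Opg−/− sham, against 105, 74.1, 65.5 and 59.5 in WT sham, 1.50 higher on the log2 scale (SE 0.24, adjusted p = 0.00944, limma). The groups did not overlap, but the lowest Opg−/− library was close to the WT pair. Igf1 itself averaged 147 ± 16.0 (SD, n = 5) in Opg−/− sham and 214 ± 69.1 (SD, n = 4) in WT sham, with overlapping groups (adjusted p = 0.24, limma).

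Gstm2, a mu-class glutathione transferase, averaged 865 ± 136 (SD, n = 5) in Opg−/− sham and 603 ± 76.2 (SD, n = 4) in WT sham (log2 fold change 0.51, adjusted p = 0.027, limma). Pak1, a kinase downstream of Rac and Cdc42 that takes part in glucose uptake by muscle, had 667, 423, 661, 533 and 560 in Opg−/− sham, against 362, 376, 317 and 397 in WT sham (log2 fold change 0.63, adjusted p = 0.047, limma). Tmem229b, a transmembrane protein gene, had 154 to 209 in Opg−/− sham and 78.3 to 130 in WT sham (log2 fold change 0.83, adjusted p = 0.037, limma). None of these 3 genes overlapped between the groups.

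Mybph, Cacnb1, Trim7 and Sbk2 lay just outside the threshold, all at an adjusted p of 0.052 (limma) and none with overlap. Mybph, a myosin-binding protein of the thick filament, had 17476, 10746, 15387, 17391 and 12853 in Opg−/− sham, against 6688, 5618, 5948 and 7143 in WT sham, a log2 fold change of 1.20. Cacnb1, the beta subunit of the calcium channel of the T-tubule, averaged 3285 ± 206 (SD, n = 5) in Opg−/− sham and 2556 ± 253 (SD, n = 4) in WT sham. Trim7, a ubiquitin ligase that binds glycogenin, averaged 1662 ± 153 (SD, n = 5) in Opg−/− sham and 1261 ± 49.7 (SD, n = 4) in WT sham. Sbk2, a kinase of striated muscle, ran the other way, at 631 to 1228 in Opg−/− sham and 1656 to 2208 in WT sham (log2 fold change −1.04).

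The other 3 higher genes came from 1 stretch of chromosome 14 (mm10, 69337174 to 69585520). Entpd4 and Entpd4b, copies of a nucleoside diphosphatase gene of the Golgi and lysosome, share 100% of the 31-base words of their annotated transcripts, so their reads cannot be assigned to one or the other. Gm16867 overlaps Entpd4 on the opposite strand and shares 26.3% of its words with the complement of both, and the libraries did not keep strand. Summed, Entpd4 and Entpd4b had 5592, 4403, 4433, 4466 and 4342 in Opg−/− sham, against 3733, 3252, 3231 and 3177 in WT sham, which is 1.39 times as much. A two-sided exact permutation test of the sum gave p = 0.0159, the smallest these samples allow. That outcome was fixed in advance, because both copies had been called on these samples with groups that did not overlap, so it adds no support. Gm16867 averaged 155 ± 31.2 (SD, n = 5) in Opg−/− sham and 82.0 ± 24.8 (SD, n = 4) in WT sham (log2 fold change 0.94, adjusted p = 0.040, limma). These 3 of the 7 higher genes therefore do not count as separate loci.

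Krt8, a keratin of simple epithelia that striated muscle also makes, had 0, 0, 0, 0 and 4.77 in Opg−/− sham, against 9.79, 25.9, 9.67 and 13.2 in WT sham. In reads, with the first library of the WT pair standing for the pair, that was 4 in all against 52. The ratio was 0.0651 (95% exact binomial interval for counting error 0.0171 to 0.177). Its partner Krt18, chosen after its values were seen, was at −1.46 with overlapping groups. Krt8 rose by 7.66 on the log2 scale with denervation in WT muscle. Csrp3, which encodes muscle LIM protein of the Z-disc and also rose with denervation, had 504, 632, 493, 390 and 501 in Opg−/− sham, against 991, 740, 712 and 904 in WT sham, a log2 fold change of −0.73 (adjusted p = 0.041, limma) with no overlap. The 22 genes of the denervation response were split, 11 above and 11 below 0 with a median of 0.04: 4 were higher and 3 lower at an unadjusted p under 0.05 (6.64% and 5.32% of all genes), Mybph at 1.20 being the highest and Krt8 the lowest.

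Of the 19 genes, 9 rose and 2 fell with denervation in WT mice, against 52.5% of all genes that changed in either direction.

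Wnt10b, a Wnt ligand known to hold back fat cell formation, had 7.27, 3.77, 13.2, 6.71 and 2.39 in Opg−/− sham, against 16.2, 29.4, 22.6 and 39.7 in WT sham (log2 fold change −1.97, adjusted p = 0.025, limma). Lrtm2, a leucine-rich repeat membrane protein gene, had 14.5 to 20.3 in Opg−/− sham and 31.1 to 58.4 in WT sham (log2 fold change −1.18). Glcci1, a glucocorticoid-induced transcript, averaged 137.5 ± 43.9 (SD, n = 5) in Opg−/− sham and 244 ± 36.9 (SD, n = 4) in WT sham (log2 fold change −0.86), and Opg−/− sham 5, at 215, lay inside the WT range. C730034F03Rik, a gene with no described function in the files, averaged 4.11 ± 1.70 (SD, n = 5) in Opg−/− sham and 13.3 ± 1.10 (SD, n = 4) in WT sham. The chloride channel regulators Clca4a and Clca1 rested on 1 read each over the 5 Opg−/− sham libraries, against 22 and 9 reads over 4 WT sham libraries. In these read counts the first library of the WT pair stood for the pair. The ratios were 0.0385 (95% exact binomial interval 0.000932 to 0.238) for Clca4a and 0.094 (0.00215 to 0.679) for Clca1.

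**Figure D3:**
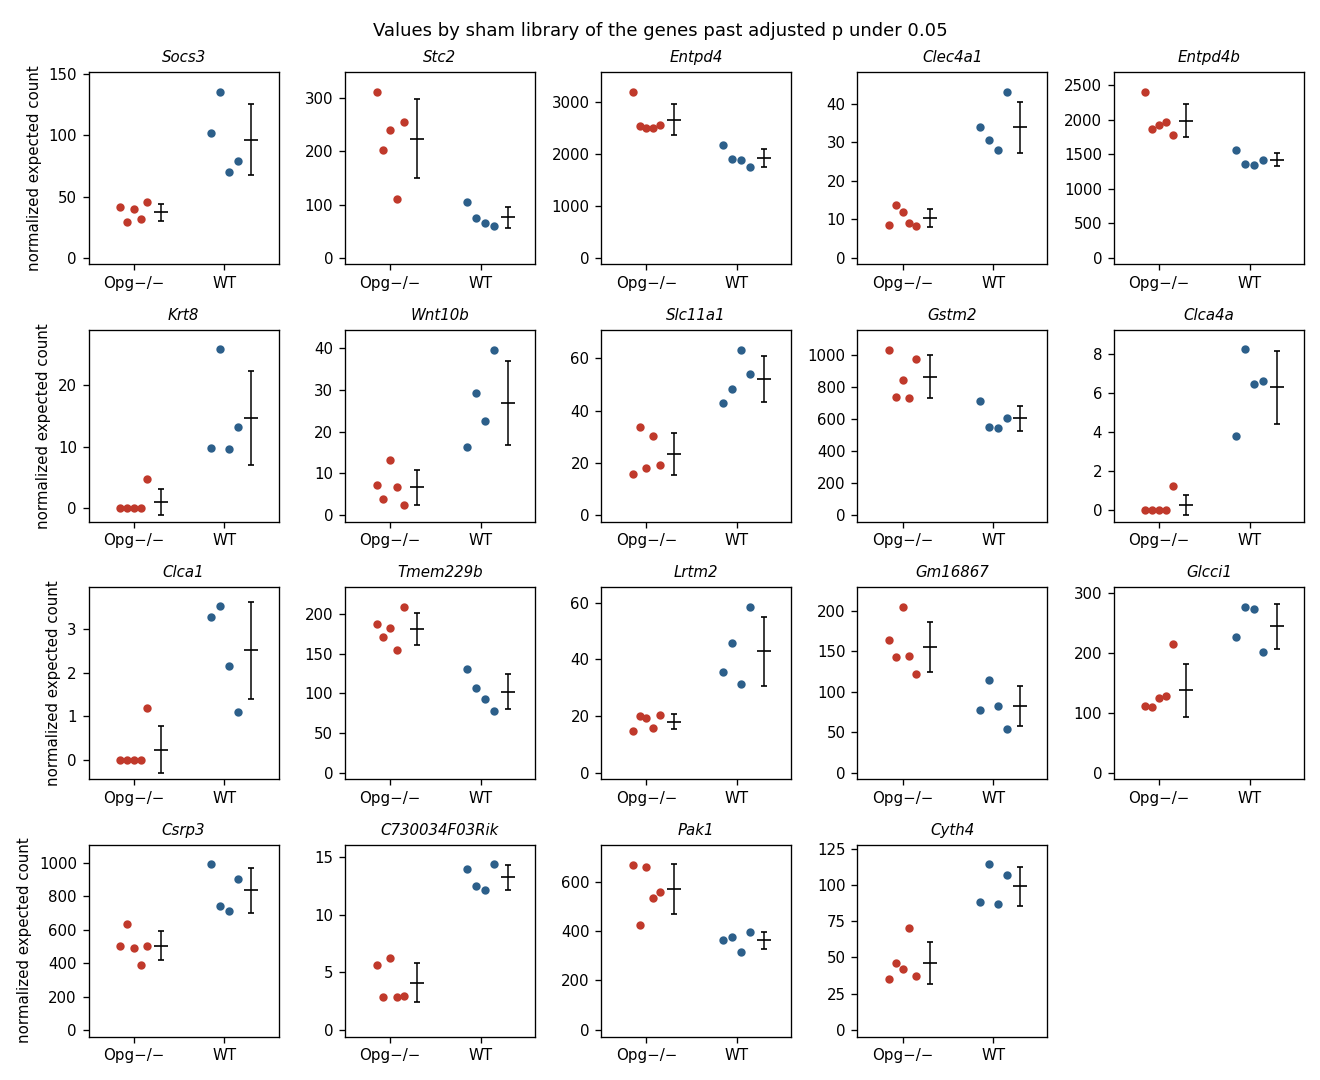
Normalized expected counts of the 19 genes past an adjusted p of 0.05 in each sham library, Opg−/− in red on the left and WT in blue on the right, with the group mean and SD (n = 5 and n = 4, the WT pair averaged). The groups are apart in 17 panels and overlap in Clca1 and Glcci1, and the SD bars of Krt8, Clca4a and Clca1 reach below 0 because 4 of 5 Opg−/− libraries are at 0.

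The den limb of the same mice showed few of these differences. Of the 19 genes, 13 had the same direction in Opg−/− den against WT den muscle, 5 with an unadjusted p under 0.05 (6.89% of all genes), and only Gm16867 passed the adjusted p there (0.0613% of all genes). Of those 5, 3 are from the chromosome 14 stretch. Gm16867 was at 0.94 in the sham and 1.29 in the den limb, Socs3 at −1.32 and −0.57, Lrtm2 at −1.18 and −0.60, Entpd4 at 0.46 and 0.32, and Entpd4b at 0.48 and 0.29 on the log2 scale. The summed Entpd4 copies were 1.24 times as high in Opg−/− den as in WT den muscle (two-sided exact permutation test, p = 0.00794). Each copy alone had den groups that did not overlap, so the sum had to reach this p, the smallest the den samples allow. It adds nothing to the values of the copies. The difference between the limbs had an unadjusted p under 0.05 for 15 of the 19 genes, against 6.96% of all genes, but the 19 were chosen on the sham contrast, which is one side of that difference, and 0 passed its adjusted p (limma interaction with no term for the mouse). Clec4a1 was at −1.63 in the sham and 0.20 in the den limb, Krt8 at −3.35 and 0.11, and Wnt10b at −1.97 and 0.25. The macrophage markers had a median of −0.73 in the sham and −0.13 in the den limb, where 13 of 20 were below 0.

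**Figure D4:**
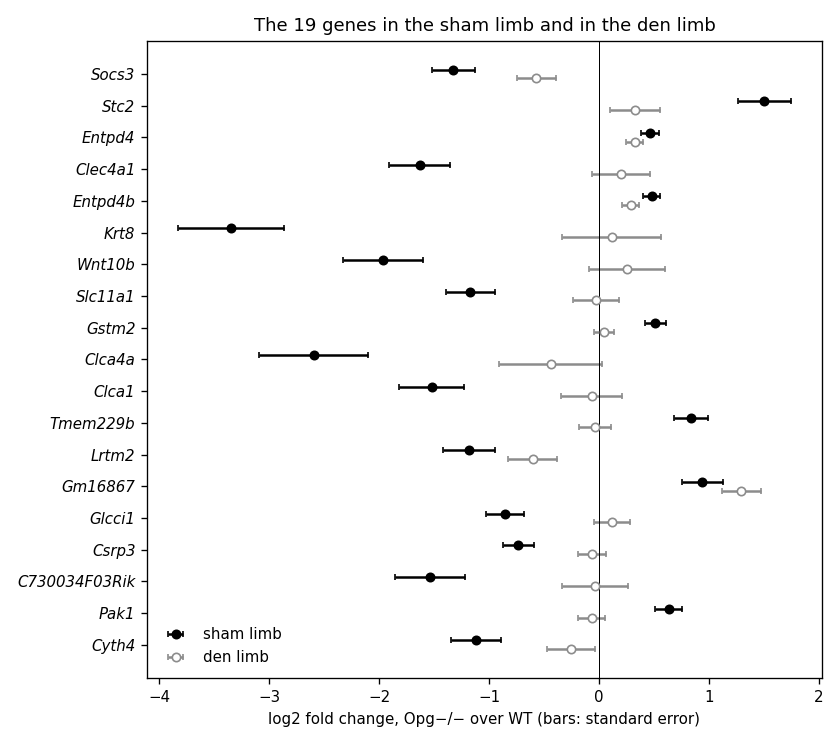
Log2 fold change of Opg−/− over WT with its standard error for the 19 genes past an adjusted p of 0.05 in the sham limb (filled) and the same genes in the den limb (open). Gm16867, Entpd4, Entpd4b, Socs3 and Lrtm2 lie on the same side in both limbs with an unadjusted p under 0.05, and most other genes lie near 0 in the den limb.

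Some genes that missed the threshold in the sham limb differed by genotype in both limbs. Nnt, the mitochondrial transhydrogenase that makes NADPH, is listed as 2 overlapping gene models on chromosome 13 between which the reads were divided unevenly. Summed over both, Nnt had 604, 531.5, 526, 386 and 538 in Opg−/− sham, against 1519, 939, 1189 and 1130 in WT sham, or 0.433 times as much (two-sided exact permutation test, p = 0.0159). In the den limb the sums were 326 to 385 in Opg−/− and 689 to 904 in WT (exact permutation test, p = 0.00794). Each p is the smallest that the samples of that limb allow and says only that the groups did not overlap. The list that holds Nnt was made with earlier results of these data known, so these p-values add no support. Nnt is known to be disrupted in the C57BL/6J substrain. The substrains of these mice are not given, and their part in any result was not tested.

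Deptor, an inhibitor of mTOR that lies 834 kb from the start of Tnfrsf11b on chromosome 15, had 1205, 993, 1396, 1408 and 1388 in Opg−/− sham, against 1532, 1794, 1537 and 1773 in WT sham. The groups did not overlap and the log2 fold change was −0.38 (adjusted p = 0.12, limma), against −0.75 in the den limb. Of the 8 protein-coding genes tested within 1 Mb, 2 had groups that did not overlap (3.01% of all genes), Deptor and Tnfrsf11b itself, and 0 passed the adjusted p. Farther away on the chromosome, the Mediator subunit Med30, chosen after its values were seen, was at −0.48 in the sham and −0.94 in the den limb. In the sham limb its groups overlapped (adjusted p = 0.21, limma). Sqle, the squalene epoxidase of cholesterol synthesis, averaged 33.4 ± 3.40 (SD, n = 5) in Opg−/− sham and 20.1 ± 2.91 (SD, n = 4) in WT sham with no overlap. It was at 0.71 in the sham limb (adjusted p = 0.26, limma) and at 1.15 in the den limb. Of the 19 genes past the adjusted p, 4 lay on chromosome 15 (Krt8, Wnt10b, C730034F03Rik and Cyth4), which held 3.91% of the genes tested. They lay 24319 to 47726 kb from the start of Tnfrsf11b. At an unadjusted p under 0.05 the chromosome had 11.7% of its genes, against 2146 of the 17948 genes in all, and 4.42% of its genes had groups that did not overlap, against 3.01%. Allele differences linked to the targeted gene and loss of OPG cannot be told apart here.

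Tet2, a dioxygenase of 5-methylcytosine, was the 1 gene whose genotype difference differed between limbs in the fit without a term for the mouse (limma interaction, adjusted p = 0.047, 0.00557% of genes, and 1249 genes at an unadjusted p under 0.05). With limbs of the same number taken as 1 mouse, which the labels do not state, and WT 1 and 2 left out, 11 genes passed, and 5 did in the same libraries without that term. Tet2 was among them both times (adjusted p = 0.0065 and 0.0049, limma). It averaged 317 ± 28.3 (SD, n = 5) in Opg−/− sham and 391 ± 37.9 (SD, n = 4) in WT sham, with overlapping groups and a log2 fold change of −0.30 (adjusted p = 0.24, limma), against 0.50 in the den limb. Inpp5k, a phosphoinositide phosphatase, and Rbm3, a cold-inducible RNA-binding protein, were at 0.20 and 0.23 in the sham limb (adjusted p 0.34 and 0.36, limma) and at 0.28 and 0.49 in the den limb.

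The RANK pathway itself showed little. Transcripts of RANKL (Tnfsf11) were at 0 in all 5 Opg−/− sham libraries and averaged 0.27 in WT sham, too few to test. RANK (Tnfrsf11a) had 7.16 to 15.8 in Opg−/− sham and 5.44 to 17.6 in WT sham. Of the 27 genes of RANK and NF-kappaB signalling tested, 14 were above and 13 below 0, with a median of 0.01 against 0.02 for all genes, and 0 passed the adjusted p. The 27 include Tnfrsf11b, and without it 13 were above and 13 below 0. Tnfaip3, a feedback inhibitor of NF-kappaB known as A20, had 55.8, 42.7, 41.9, 45.8 and 45.4 in Opg−/− sham, against 82.5, 71.8, 58.0 and 68.4 in WT sham, with no overlap (log2 fold change −0.59, adjusted p = 0.30, limma). Nfkbie, the inhibitor IkappaB-epsilon, was at −1.03 and the death ligand Tnfsf10 (TRAIL), which OPG also binds, at −0.69, both with overlapping groups (adjusted p 0.36 and 0.35, limma).

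Among 22 other members of the TNF receptor family the median was −0.24, with 17 below 0, and leaving out 1 library at a time gave −0.31 to −0.14. Tnfrsf1b, the TNF receptor 2 of leukocytes and endothelium, had 76.4, 80.4, 93.4, 92.8 and 58.5 in Opg−/− sham, against 115, 122, 107 and 128 in WT sham (log2 fold change −0.57, adjusted p = 0.10, limma). Edar, the ectodysplasin receptor, ran the other way, with 3.59 to 22.7 in Opg−/− sham and 1.09 to 2.21 in WT sham (log2 fold change 1.73, adjusted p = 0.13, limma). Neither gene overlapped between the groups.

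Trim63 and Fbxo32, the ubiquitin ligases best known from muscle atrophy, overlapped between the groups. Trim63 (MuRF-1) had 22551, 32012, 23343, 17487 and 35844 in Opg−/− sham, against 23102, 14087, 22787 and 15693 in WT sham, 0.46 higher on the log2 scale (SE 0.23, adjusted p = 0.44, limma). Fbxo32 (Atrogin-1) had 16591 to 34189 in Opg−/− sham and 15175 to 22513 in WT sham, 0.25 higher on the log2 scale (SE 0.20, adjusted p = 0.65, limma). Of the 22 ligases, 19 were above 0 with a median of 0.11, which became −0.03 under equal totals, and 2 had an unadjusted p under 0.05 (6.64% of all genes in that direction). The 32 proteasome subunits had a median of 0.10, 30 of them above 0 and 6 with groups that did not overlap (1.74% of all genes in that direction), and −0.03 under equal totals. Both lists lay above the median of all genes under either scaling (0.02 and −0.11). Equal totals shifts low genes less, because 1 is added before the log, so that median is not an even reference for abundant genes. Per library, the median difference of a list's genes from their WT mean overlapped between the groups in both lists. For the proteasome it was 0.02 to 0.19 in Opg−/− sham and −0.06 to 0.08 in WT sham.

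Lists of fast fibre, mitochondrial and calcium handling genes had small positive medians under the authors' scaling. All 15 genes of fast fibres were above 0 (median 0.23), as were all 53 nuclear genes of oxidative phosphorylation (0.15), all 21 of the TCA cycle (0.16) and all 13 of the mitochondrial genome (0.11). Of 25 genes of calcium handling, 22 were above 0 (0.16). At an unadjusted p under 0.05, higher, there were 6 fast fibre genes, 18 of oxidative phosphorylation, 12 of the TCA cycle, 0 of the mitochondrial genome and 12 of calcium handling, against 6.64% of all genes. No gene of these 5 lists passed the adjusted p. These counts are over genes and do not measure the spread between samples. Per library, the median difference of a list's genes from their WT mean overlapped between the groups in all 5 lists. For fast fibres it was 0.11 to 0.47 in Opg−/− sham and −0.11 to 0.21 in WT sham. For oxidative phosphorylation it was −0.03 to 0.34 and −0.10 to 0.15 in the same order. The 14 genes of slow fibres had a median of 0.02 (8 above and 6 below 0, and −0.06 to 0.17 on leaving out 1 library) and the 16 of the PGC-1 and ERR programme one of 0.03 (9 above and 7 below 0, and 0.01 to 0.05 on leaving out 1 library). Under equal totals the medians were 0.09, 0.01, 0.02, −0.03 and 0.02 in the same order of fast fibre, oxidative phosphorylation, TCA cycle, mitochondrial genome and calcium handling, against −0.11 for all genes. The mitochondrial genome turned below 0 with that shift and stayed above the median of all genes. Its median was 0.07 to 0.16 on leaving out 1 library and 0.19 without the WT pair. Atp2a1, the calcium pump of fast fibres, had 748870, 687340, 660040, 646540 and 741940 in Opg−/− sham, against 647660, 506880, 523630 and 488320 in WT sham (log2 fold change 0.37, adjusted p = 0.15, limma). Myh4 had a log2 fold change of 0.43 and Myh1, the IIX myosin, one of 0.46 (adjusted p 0.38 and 0.26, limma), and for both the averaged WT pair lay within the Opg−/− range. The neonatal myosin Myh8 had 22.5 to 56.9 in Opg−/− sham and 54.8 to 90.6 in WT sham, a log2 fold change of −0.96 (adjusted p = 0.36, limma).

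Of the 15 markers of satellite cells, 11 were above 0 with a median of 0.13, which was 0.07 to 0.18 on leaving out 1 library and −0.01 under equal totals. Cdh15, the M-cadherin of satellite cells and fibres, had 489, 435, 447, 410 and 469 in Opg−/− sham, against 393, 360, 319 and 344 in WT sham (log2 fold change 0.35, adjusted p = 0.13, limma), and was at −0.21 in the den limb. Itga7, the laminin receptor of the same cells, averaged 2111 ± 261 (SD, n = 5) in Opg−/− sham and 1722 ± 51.7 (SD, n = 4) in WT sham, also with no overlap (log2 fold change 0.29, adjusted p = 0.17, limma). These 2 were the only markers of the list with groups that did not overlap (1.74% of all genes in that direction), and 4 of the 15 were below 0.

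**Figure D5:**
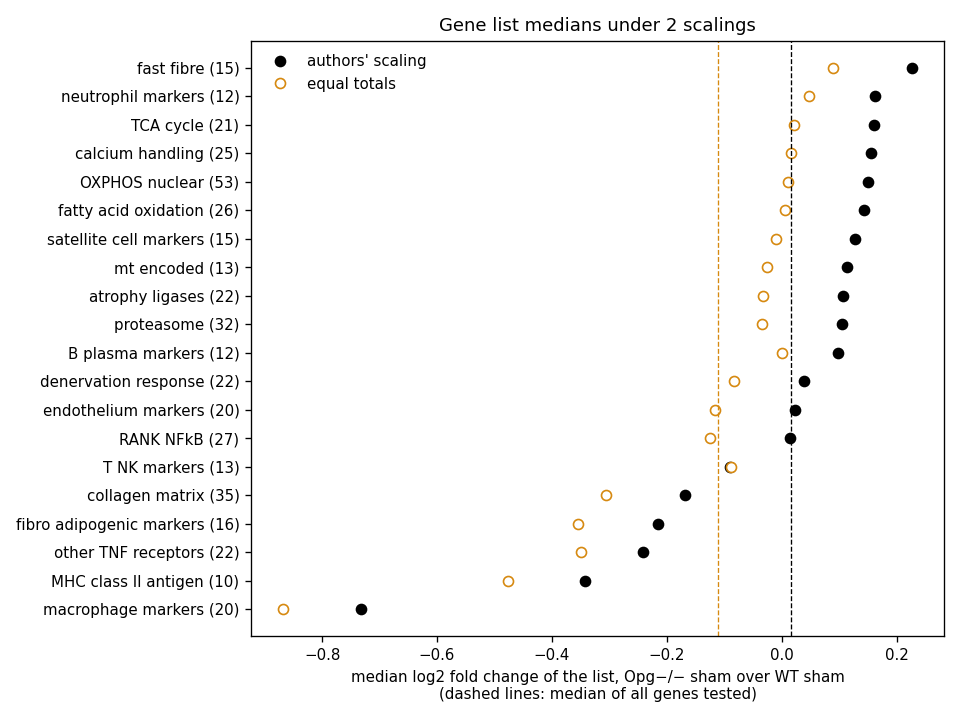
Median log2 fold change of Opg−/− sham over WT sham for 20 of the 56 gene lists made (number of genes tested in brackets), with the authors' scaling (filled) and every library scaled to the same total (open), and dashed lines at the median of all genes, 0.02 and −0.11. Of the 20, macrophage markers lie lowest under both scalings, at −0.73 and −0.87, and fast fibre genes highest, at 0.23 and 0.09. A list of 8 adult myosins, not drawn, had medians of 0.23 and 0.09 as well.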

How the data were processed

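The authors sequenced non-strand-specific libraries, used STAR for alignment (mm10) and RSEM for quantification, in versions not given in the sources used here. The deposited signal values, 32285 Ensembl genes in 20 libraries, were expected counts scaled by a size factor for each library, called normalized expected counts here. The smallest step between low values gave what 1 read was worth, and with it each library's depth. Counting intervals cover counting error only. Each sham column was taken from its label. The labels do not name the animal of each library, so p-values measure the spread between these samples.

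limma 3.58.1 (R 4.3.3; trend, robust) was run on log2(value + 1) for genes that reached 1 in 4 or more libraries. The 4 groups shared 1 fit, with WT sham 1 and 2 averaged. Fold changes are on that scale, which understates the change of low genes. Adjusted p is Benjamini-Hochberg over all genes. EBSeq, the authors' tool, was not run. The fit was also run on simulated data with independently drawn genes, a common dispersion and no outlying library. That run cannot tell how the fit does where calls depend on single libraries, as here. Coordinates are from GENCODE M21.

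Libraries entered by their labels. The choice to describe this comparison, and the lists and their members, were made with earlier results of these data known, so lists have no test. The text names the targeted gene and genes named by the study, genes past adjusted p, the 10 genes in each direction with the smallest p among non-overlapping genes of mean at least 20, 2 genes per list or those past adjusted p, and any gene of 4 open groups (RANK and NF-kappaB, atrophy ligases, myosins, neighbours of Tnfrsf11b within 1 Mb). Alternatives changed the filter, pseudocount, scaling, samples and test, and a fit with a term for the mouse was added after seeing the data.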

Additional observations from a re-analysis of the deposited data

Results flagged for a closer look

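Samples far from the rest of their group were looked for in 54 groups of values, 26 genes and the sum of values in each sham group. The check finds about 1 in 20 groups by chance, and 6 were found. That rate does not hold for Krt8, Clca4a and Clca1, where 4 of 5 libraries were at 0 and any read makes the fifth stand out. Opg−/− sham 5 was the high library for Krt8 (4.775, against 0 in the other 4), for Clca4a (1.194, against 0), for Clca1 (1.194, against 0) and for Glcci1 (214.9, against 109 to 127). Opg−/− sham 1 was high for Entpd4 (3191, against 2497 to 2568). The averaged WT pair was high for the sum of values (20480000, against 17870000 to 17980000 in WT sham 3 to 5).

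The effect of genotype on Tet2 differed between the limbs: the difference, den minus sham, was 0.809 on the log2 scale (limma interaction, adjusted p = 0.047), with Opg−/− below WT in the sham and above WT in the den limb.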

How the results depend on the processing

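The number of genes past the adjusted p, 19 as reported, was 56 with WT sham 1 and 2 kept as 2 libraries, 34 with equal totals, 4 with limma voom on the recovered reads and 114 without the averaged WT pair. The number of those also past 1 on the log2 scale, 11 as reported, was 33, 18, 1 and 36 in the same fits, 6 in a fit of the sham groups alone and 19 with a pseudocount of 0.1. Leaving out 1 library at a time gave 2 to 35 genes and 2 to 20, and the cause was not tested. With replicate number as a block the counts were 32 and 22, but the numbers pair no samples across genotypes: the deviations of same-numbered libraries correlated at −0.02 to 0.06 over 4 pairs, and 1 of 4 WT libraries correlated best with its own number. Between limbs, same-numbered libraries of a genotype correlated at 0.01 to 0.07 over 8 pairs, 6 of them best with their own number, so that the numbers mark the same mouse is not established. A block for that number, added after seeing the data and run without WT 1 and 2, gave 11 genes with a genotype difference between limbs, against 5 in the same libraries without it and 1 in the fit of all libraries; Tet2 was at 0.978 both times. Of the 19 genes, 3 were among the 4 called by voom, 15 among those called with the block, 17 among those called with equal totals and 10 among the 24 called in a fit of the sham groups alone. Without Opg−/− sham 1 or 3, 7 and 8 of them were called, and 2 without WT sham 3, 4 or 5. Socs3 lost its call in 1 of 19 alternatives, Clec4a1, Entpd4 and Entpd4b in 3 each and Pak1 in 11. Tnfrsf11a turned to −0.088 without the WT pair. Under equal totals, list medians moved to 0.016 for calcium handling, 0.011 for oxidative phosphorylation, 0.022 for the TCA cycle, 0.0051 for fatty acid oxidation, −0.034 for proteasome, −0.032 for atrophy ligases, −0.12 for RANK and NF-kappaB (−0.088 without the WT pair), −0.011 for satellite cells and −0.12 for endothelium, with −0.11 for all genes. Leaving out 1 library at a time moved the median of 22 genes of the denervation response, 0.04 with all libraries, to between −0.11 and 0.14. The planned quasi-likelihood count test was not run, because only about 89% of values came out as whole reads.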
